A study of Arabidopsis thaliana with 18 samples.

Results

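The genes described here encode 10 proteins of chlorophyll synthesis in the plant Arabidopsis thaliana: HEMA1 (AT1G58290), GUN4 (AT3G59400), CHLH (AT5G13630), CHLI1 (AT4G18480), CHLD (AT1G08520), CRD1 (AT3G56940), PORA (AT5G54190), PORB (AT4G27440), PORC (AT1G03630) and CAO (AT1G44446). They were picked by name and locus and not by a rule on measured values, though with earlier results of these data known. All 10 were found among the 27827 gene loci of the value table. The samples came from accession Col-0, and no group carried a mutation or a treatment beyond imbibition. One stage was the dry seed, freshly harvested, and the other the seedling after 72 h of imbibition. From each stage total RNA, monosomal RNA (transcripts sedimenting with a single ribosome) and polysomal RNA (transcripts carrying several ribosomes) were hybridised, with 3 arrays in each of the 6 groups and 18 in all. Each replicate was a bulk of 8 plants, so a value is a mean over many seeds or seedlings and all their cell types. The light regime of the seedlings is not given in the sources used here.

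Chlorophyll is made in plastids from glutamate by the tetrapyrrole pathway, which also supplies heme, siroheme and the bilin pigments of the phytochromes. Its first dedicated step, the reduction of glutamyl-tRNA, sets the flow of 5-aminolevulinate, and the pathway forks where either iron or magnesium is inserted into protoporphyrin. In flowering plants the reduction of protochlorophyllide needs light, which is why seedlings in darkness stay pale, and free intermediates are toxic in light. Embryos of Arabidopsis are green while they grow and lose their chlorophyll as the seed matures and dries.

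Values are log2 intensities scaled between arrays, so a value gives the share of a transcript in its RNA fraction and not its amount, and in such bulk samples fewer cells of a type and less RNA per cell cannot be told apart. Probes differ in brightness, so levels are compared for the same gene between groups and not between genes. Groups are given as means ± SD (n = 3 arrays), differences as log2 values with the standard error (SE) of the fit. A difference was called when its p from limma, adjusted over all 27827 loci of the comparison by the method of Benjamini and Hochberg, was under 0.05. Array medians lay between 3.05 and 3.17 in dry seed and between 3.44 and 3.65 in seedlings, and the table holds no detection call. The stages matched their labels: the median of 8 seed storage protein genes was 10.94 to 11.39 on dry seed arrays, and that of 6 photosynthesis marker genes was 2.51 to 3.39 there and 7.36 to 7.92 on seedling arrays. One seedling array stood apart. The storage protein median on the seedling polysomal arrays was 3.09, 2.83 and 6.84 for replicates 1, 2 and 3, against 2.96 to 3.49 in seedling total RNA and 3.40 to 3.71 in seedling monosomal RNA. The summed storage signal was also highest for replicate 1 among the monosomal arrays, at 8.44 against 7.53 and 6.57 (log2 of the sum). The part of these seed transcripts in the fraction results below was not tested, but calls lost without such an array are given beside the result.

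Transcripts of 9 of the 10 genes rose from dry seed to seedling in every RNA fraction. The exception was CAO, the enzyme that turns chlorophyll a into chlorophyll b, which was called higher in monosomal RNA alone. In total RNA 9 genes were called higher, where 28.8% of all loci were. All 10 were called higher in monosomal RNA, against 26.8% of all loci, and 9 in polysomal RNA, against 26.7%. The median change of the 10 genes was 5.38 in total, 5.47 in monosomal and 6.06 in polysomal RNA, where the medians of all loci were −0.17, 0.03 and −0.03. In each fraction the 3 seedling values and the 3 dry seed values of all 10 genes were separate, as they were for 66.8%, 53.9% and 61.5% of all loci.

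**Figure D1:**
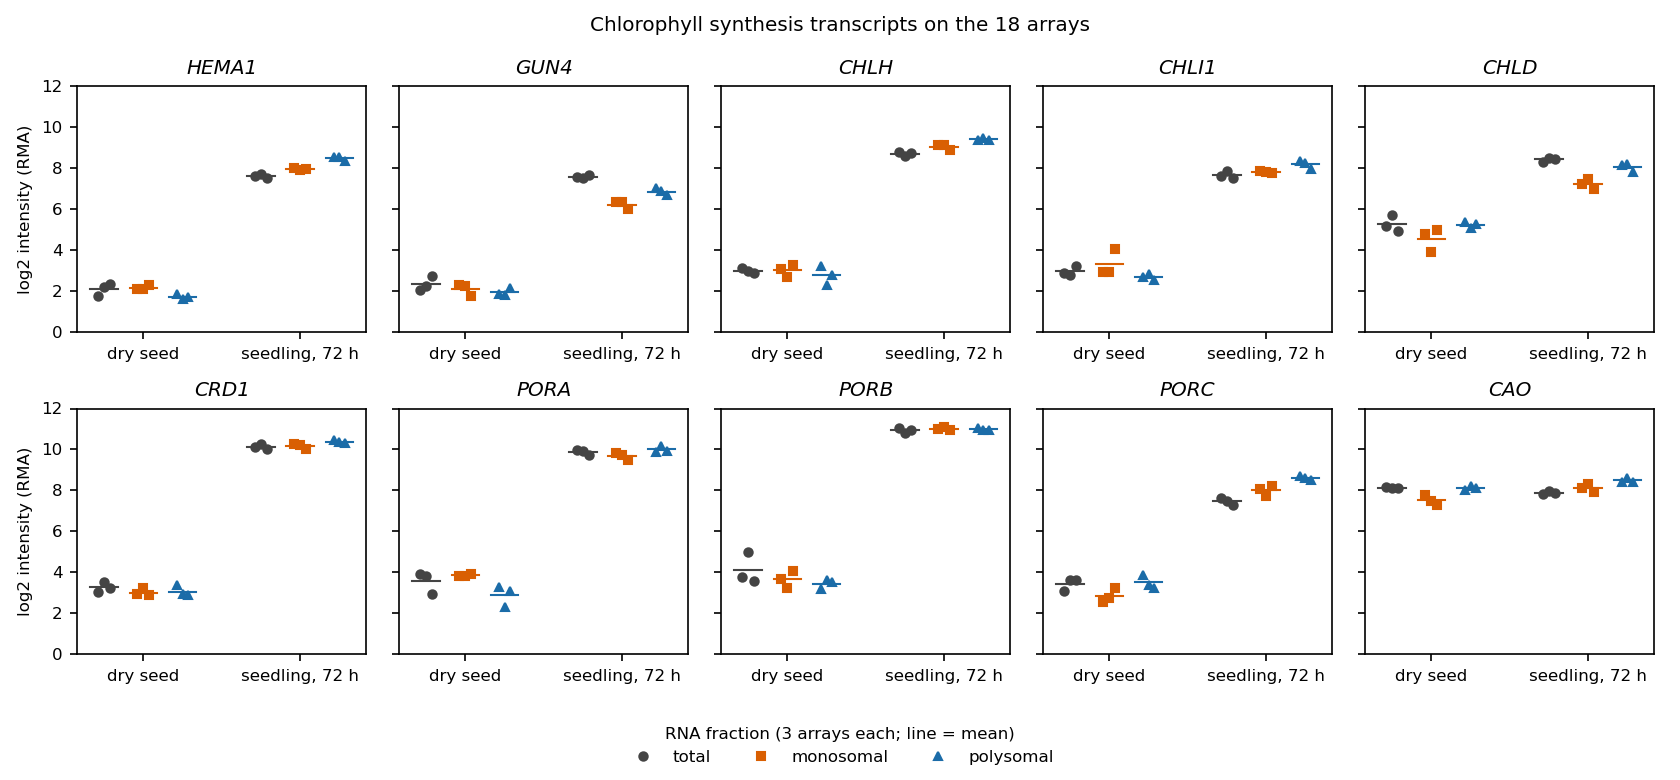
Log2 intensity (vertical axis) of the 10 genes on the 18 arrays, by stage and RNA fraction, with 1 point per array and a line at each mean of 3 arrays. Without CAO, dry seed values lie between 1.59 and 5.70 and seedling values between 5.98 and 11.11, while CAO lies between 7.30 and 8.63 at both stages.

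HEMA1 encodes glutamyl-tRNA reductase, which starts the pathway. Its total RNA values were 1.73, 2.21 and 2.36 in dry seed and 7.62, 7.73 and 7.53 in seedlings. The rise of 5.53 (SE 0.18, 95% interval 5.15 to 5.90, adjusted p = 6.90e-15) was measured from low dry seed values, for which the table gives no detection call. On polysomes the values went from 1.87, 1.59 and 1.70 to 8.55, 8.53 and 8.32, a rise of 6.75 (SE 0.18, adjusted p = 6.42e-16). The groups were far apart in both fractions.

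Magnesium chelatase inserts magnesium into protoporphyrin and consists of the porphyrin-binding subunit CHLH and the ATPase subunits CHLI and CHLD, while GUN4 binds porphyrins and activates the enzyme. CHLH had total RNA values of 3.14, 2.99 and 2.86 in dry seed and 8.76, 8.59 and 8.71 in seedlings, and rose by 5.70 (SE 0.21, adjusted p = 3.32e-14). GUN4 went from 2.05, 2.25 and 2.72 to 7.58, 7.49 and 7.64, a rise of 5.23 (SE 0.21, adjusted p = 6.45e-14). CHLI1 had 2.87, 2.80 and 3.20 in dry seed and 7.61, 7.85 and 7.51 in seedlings, a rise of 4.70 (SE 0.24, adjusted p = 2.43e-12). These groups were far apart, with SDs of 0.35 or less within each of them.

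CHLD rose least of the 9 genes in each fraction. Its total RNA values were 5.19, 5.70 and 4.94 in dry seed and 8.30, 8.49 and 8.46 in seedlings, a rise of 3.14 (SE 0.25, 95% interval 2.62 to 3.66, adjusted p = 1.32e-09). That interval overlapped the one of PORC (3.55 to 4.49), and differences between genes were not tested.  In total RNA 4.54% of all loci had a larger rise than CHLD, against 0.478% for CHLH.

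CRD1, a subunit of the cyclase that closes the fifth ring of the molecule, rose in all 3 fractions. Total RNA values of 3.06, 3.53 and 3.25 in dry seed stood against 10.11, 10.27 and 10.04 in seedlings, a rise of 6.86 (SE 0.18, 95% interval 6.47 to 7.25, adjusted p = 1.77e-15). Of all loci 0.144% rose more. The rise was 7.14 in monosomal RNA (SE 0.18, adjusted p = 1.07e-15) and 7.32 in polysomal RNA (SE 0.18, adjusted p = 4.20e-16).

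The light-dependent reductases PORA, PORB and PORC convert protochlorophyllide to chlorophyllide. They are close relatives, and how far their probes tell them apart was not tested, though no row of the 10 genes was identical to another row. The same holds for CHLI1 and its relative CHLI2. PORA is best known from seedlings grown in darkness and is repressed by light, PORB is found in both, and PORC is known as the light-induced form of green tissue. PORA had 3.92, 3.85 and 2.93 in dry total RNA and 9.99, 9.94 and 9.73 in that of seedlings, a rise of 6.32 (SE 0.26, adjusted p = 9.56e-14). PORB went from 3.79, 5.01 and 3.56 to 11.05, 10.79 and 10.95, a rise of 6.81 (SE 0.28, adjusted p = 1.20e-13). PORC went from 3.09, 3.62 and 3.62 to 7.61, 7.48 and 7.31, a rise of 4.02 (SE 0.22, 95% interval 3.55 to 4.49, adjusted p = 7.27e-12). Thus all 3 reductase transcripts were raised at 72 h, and the intervals of PORA (5.78 to 6.86) and PORB (6.22 to 7.40) lay above that of PORC in total RNA. In monosomal RNA the intervals of PORA (5.29 to 6.37) and PORC (4.68 to 5.62) overlapped, while that of PORB (6.77 to 7.96) lay above both. In polysomal RNA those of PORA (6.56 to 7.64) and PORB (6.95 to 8.14) lay above that of PORC (4.62 to 5.56). The difference between genes was not itself tested. On polysomes PORB rose by 7.54 (SE 0.28, adjusted p = 2.87e-14), from 3.20, 3.62 and 3.51 to 11.06, 10.94 and 10.96.

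CAO changed little between the stages. Its total RNA values were 8.17, 8.13 and 8.10 in dry seed (8.13 ± 0.03) and 7.85, 7.96 and 7.86 in seedlings (7.89 ± 0.06). The seedling values were all lower, but the difference of −0.24 (SE 0.17, 95% interval −0.60 to 0.12, adjusted p = 0.230) was not called. In monosomal RNA CAO went from 7.79, 7.48 and 7.30 to 8.10, 8.32 and 7.94, a rise of 0.59 (SE 0.17, adjusted p = 0.00635, and 0.0602 in a fit of these groups alone). On polysomes it had 8.0, 8.24 and 8.11 in dry seed and 8.43, 8.63 and 8.42 in seedlings, a difference of 0.38 (SE 0.17, adjusted p = 0.0750), short of the threshold. The upper bounds of these intervals, 0.12, 0.96 and 0.74, were below the lower bound of every other gene in the same fraction. Its small differences depend on the scaling of the arrays: with every array centred on its median they became −0.75 (adjusted p = 0.000871) in total, 0.24 (adjusted p = 0.268) in monosomal and −0.06 (adjusted p = 0.767) in polysomal RNA. In the opposite direction, the polysomal difference was called higher after centring on the 75th percentile (0.56, adjusted p = 0.00854), after loess scaling (0.47, adjusted p = 0.0222), with a trend and robust prior (0.38, adjusted p = 0.0174) and with array weights (0.40, adjusted p = 0.0238). Centring on the median also moved the median of all loci to −0.67, −0.33 and −0.46. The numbers of loci called higher and lower went with it from 8019 and 9275 to 5783 and 15017 in total RNA, from 7447 and 6918 to 5529 and 10332 in monosomal RNA and from 7436 and 7471 to 5582 and 12145 in polysomal RNA. The rises of the other 9 genes were called under every alternative tried.

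**Figure D2:**
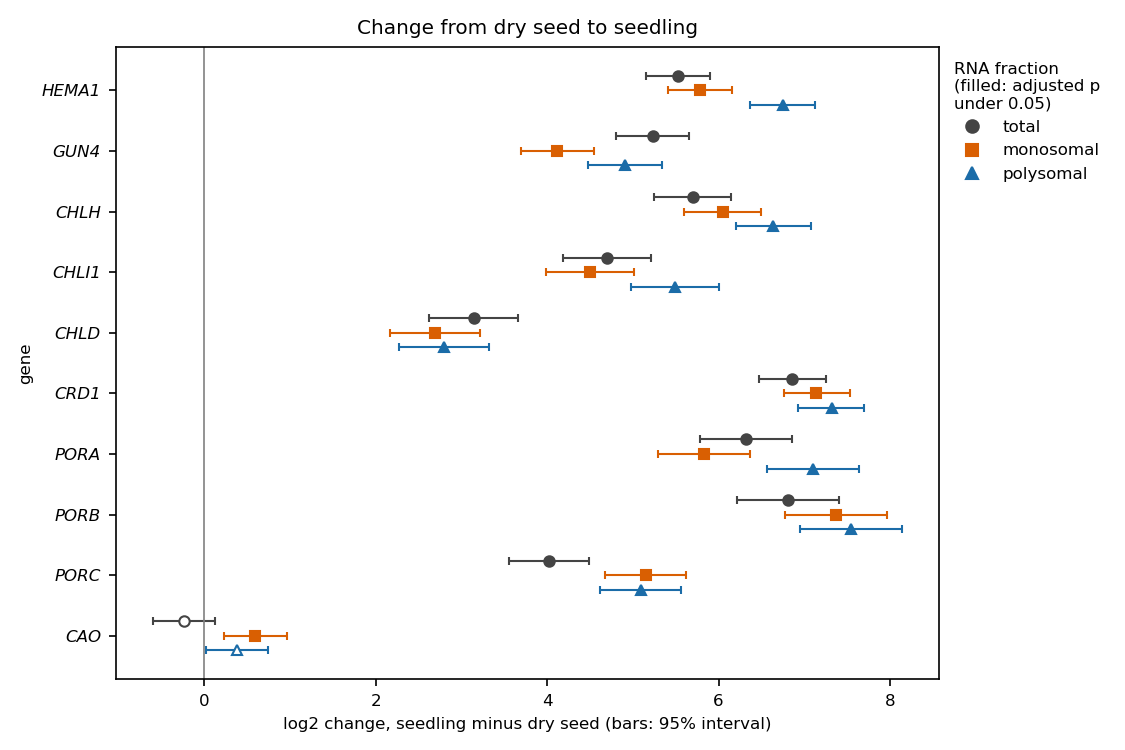
Log2 change from dry seed to seedling (horizontal axis) of each gene (vertical axis) in total, monosomal and polysomal RNA, with 95% intervals and filled symbols for adjusted p under 0.05. CAO lies at −0.24, 0.59 and 0.38, CHLD is the lowest of the others at 2.69 to 3.14, and PORB reaches 7.54.

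Within seedlings the calls between RNA fractions went both ways. GUN4 and CHLD held smaller shares of monosomal than of total RNA. HEMA1, CHLH, PORC and CAO held larger shares of polysomal than of total RNA. For CHLI1, CRD1, PORA and PORB no difference between fractions was called.

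Monosomal against total RNA gave 2 calls, both lower, where 31.8% of all loci were called in either direction and 14.5% lower. GUN4 had 7.58, 7.49 and 7.64 in total and 6.34, 6.32 and 5.98 in monosomal RNA, a difference of −1.36 (SE 0.21, 95% interval −1.79 to −0.92, adjusted p = 0.000101). CHLD had 8.30, 8.49 and 8.46 against 7.23, 7.46 and 6.98, a difference of −1.20 (SE 0.25, 95% interval −1.72 to −0.67, adjusted p = 0.00160). The values did not overlap for either gene, and each array in turn could be left out without losing these 2 calls. Of the 10 genes 5 had separate values, against 44.4% of all loci. Those of PORC, 8.07, 7.73 and 8.20 against 7.61, 7.48 and 7.31 in total RNA, gave a difference of 0.53 (SE 0.22, adjusted p = 0.0753). Under median centring, which moved the median of all loci in this comparison from 0.11 to 0.28, PORC (0.70, adjusted p = 0.0202), HEMA1 (0.49, adjusted p = 0.0425) and CHLH (0.53, adjusted p = 0.0489) were called higher as well, and GUN4 and CHLD remained lower. PORC was also called higher after centring on the 75th percentile (0.67, adjusted p = 0.0304). Loess scaling, with a median of all loci of 0.06, called PORC (0.66, adjusted p = 0.0410) and HEMA1 (0.49, adjusted p = 0.0464) higher. Of all loci 4790 were called higher and 4048 lower, against 7759 and 3026 after median centring and 6945 and 3163 after centring on the 75th percentile.

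On seedling polysomes 5 genes differed from total RNA, 4 higher and 1 lower, where 20.5% of all loci were called, 9.86% higher and 10.7% lower. PORC and HEMA1 were higher with the widest margin. The polysomal values of PORC, of 8.69, 8.62 and 8.49, stood 1.13 above total RNA (SE 0.22, 95% interval 0.67 to 1.60, adjusted p = 0.00137), which is 2.20-fold. HEMA1 had 8.55, 8.53 and 8.32 on polysomes and was higher by 0.84 (SE 0.18, 95% interval 0.46 to 1.22, adjusted p = 0.00265). Both calls held when any one array was left out. Median centring turned the split of all loci from 2744 higher and 2968 lower to 4056 and 2421. In all, 8 of the 10 genes had separate values in these groups, against 41.3% of all loci.

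CHLH and CAO were also higher on polysomes, with less margin. CHLH had 9.38, 9.48 and 9.38 against 8.76, 8.59 and 8.71 (difference 0.73, SE 0.21, adjusted p = 0.0202). Its call was lost without polysomal replicate 2 (adjusted p = 0.0597) or total replicate 2 (adjusted p = 0.0702). CAO was higher by 0.60 (SE 0.17, adjusted p = 0.0180), and its call was lost without polysomal replicate 2 (adjusted p = 0.0699), total replicate 1 (adjusted p = 0.0567) or total replicate 3 (adjusted p = 0.0503). The values of neither gene overlapped between the fractions.

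GUN4, the chelatase activator, was the gene called lower on polysomes, with 7.02, 6.87 and 6.68 and a difference of −0.72 (SE 0.21, 95% interval −1.15 to −0.29, adjusted p = 0.0184). Polysomal replicate 3, the array with raised storage protein transcripts, gave the lowest of its 3 values. Without that array the difference was −0.63 (adjusted p = 0.0740), and the call was also lost without total replicate 1 (adjusted p = 0.0512) or total replicate 3 (adjusted p = 0.0577). The same array gave the lowest of the 3 polysomal values for 8 of the 10 genes, all but PORA and PORB, as monosomal replicate 3 did for 8 of the 10 among the monosomal arrays. Without it the polysomal calls of HEMA1, CHLH, PORC and CAO against total RNA were kept.

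For the remaining genes the polysomal difference was not called. CHLI1 differed by 0.52 (SE 0.24, adjusted p = 0.139), CHLD by −0.38 (SE 0.25, adjusted p = 0.300) and CRD1 by 0.24 (SE 0.18, adjusted p = 0.383). For PORA the difference was 0.12 (95% interval −0.42 to 0.66, adjusted p = 0.787) and for PORB 0.05 (95% interval −0.54 to 0.65, adjusted p = 0.917). Both of these intervals hold 0.60, the difference called for CAO.

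**Figure D3:**
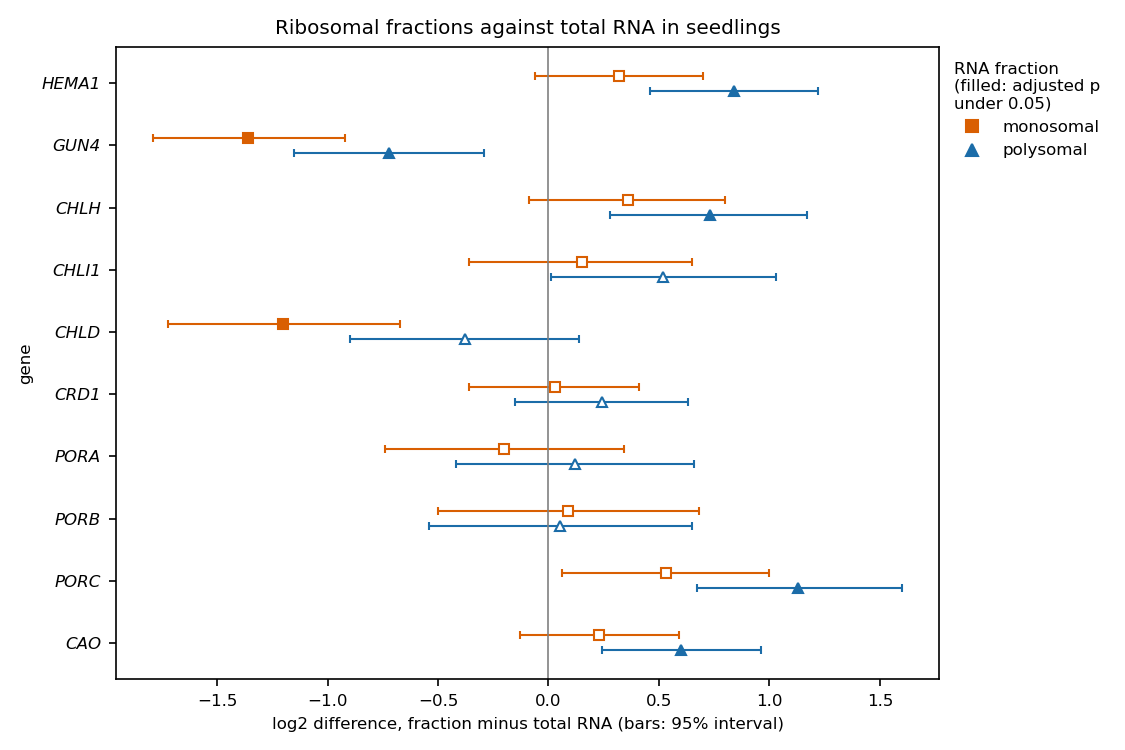
Log2 difference of monosomal and polysomal RNA from total RNA in seedlings (horizontal axis) for each gene (vertical axis), with 95% intervals and filled symbols for adjusted p under 0.05. GUN4 lies below 0 in both fractions (−1.36 and −0.72), and PORC (0.53 and 1.13) and HEMA1 (0.32 and 0.84) lie above 0.

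Between polysomal and monosomal RNA of seedlings 3 genes were called, all higher on polysomes, where 19.1% of all loci were called and 10.9% higher. CHLD had 8.13, 8.19 and 7.80 on polysomes against 7.23, 7.46 and 6.98 on monosomes (difference 0.82, SE 0.25, adjusted p = 0.0281). The differences of GUN4 (0.64, SE 0.21, adjusted p = 0.0357) and HEMA1 (0.52, SE 0.18, adjusted p = 0.0498) were smaller. In 9 of the 10 genes the values were separate, against 35.1% of all loci, and all 9 had polysomal values above the monosomal ones. The exception was PORB, with 11.06, 10.94 and 10.96 against 11.00, 11.11 and 10.96.

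These 3 calls depended on the scaling and on single arrays. None of them was called after centring on the 75th percentile or after loess scaling. The former turned the split of all loci from 3047 higher and 2274 lower to 1907 and 5289, and median centring turned it to 2564 and 2872. The HEMA1 call was lost in each of the 6 fits that left out an array, with adjusted p up to 0.131, and the GUN4 call without monosomal replicate 3 (0.127), polysomal replicate 1 (0.119) or polysomal replicate 2 (0.0858). That of CHLD was lost without monosomal replicate 1 (0.0546), monosomal replicate 3 (0.102), polysomal replicate 1 (0.0818) or polysomal replicate 2 (0.0931). Without both seedling arrays that held raised seed transcripts GUN4 alone was called.

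In dry seed the 9 genes other than CAO lay between 1.59 and 5.70, and replicates spread more, with a median SD of 0.28 over the 10 genes and 3 fractions against 0.12 in seedlings. Of the 90 dry seed values 47 lay above the median of their array, whereas all 90 seedling values did. HEMA1 and GUN4 lay above it on 0 of the 9 dry seed arrays, whereas CAO, CHLD and PORB did on all 9.

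Monosomal against total RNA of dry seed gave 1 call, where 6.21% of all loci were called. CAO had 7.79, 7.48 and 7.30 in monosomal and 8.17, 8.13 and 8.10 in total RNA, a difference of −0.61 (SE 0.17, adjusted p = 0.0401). It was the only 1 of the 10 genes with separate values here, against 23.1% of all loci. This call was lost without any one of total replicates 1, 2 and 3 (adjusted p = 0.103, 0.0970 and 0.0792) or of monosomal replicates 2 and 3 (0.117 and 0.166).

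Between polysomal and total RNA of dry seed 0 of the 10 genes were called by limma, where 4.65% of all loci were, and 3 had an unadjusted p under 0.05 (HEMA1, PORA and PORB). None of the 10 had separate values, against 32.1% of all loci. PORA, with 3.30, 2.31 and 3.10 on polysomes against 3.92, 3.85 and 2.93, differed by −0.66 (SE 0.26, adjusted p = 0.137). Without total replicate 3 that difference was −0.98 and was called (adjusted p = 0.0312).

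Polysomal against monosomal RNA of dry seed gave 3 calls, PORA lower and PORC and CAO higher, where 19.0% of all loci were called, 11.5% higher and 7.49% lower. PORA had 3.30, 2.31 and 3.10 on polysomes and 3.85, 3.81 and 3.91 on monosomes (difference −0.95, SE 0.26, adjusted p = 0.0132). Without polysomal replicate 2, the lowest value, it was −0.66 (adjusted p = 0.0938). PORC had 3.88, 3.41 and 3.26 against 2.55, 2.75 and 3.26, which touch at 3.26 (difference 0.66, SE 0.22, adjusted p = 0.0448).

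The PORC call was lost without monosomal replicate 1 (0.162) or 2 (0.121) or polysomal replicate 1 (0.215) or 2 (0.0721). It was also lost under loess scaling (0.37, adjusted p = 0.313), after centring on the 75th percentile (0.45, adjusted p = 0.146) and with only the groups compared (adjusted p = 0.0794). Without both seedling arrays of raised seed transcripts, which enter only the shared spread here, the difference stayed at 0.66 and was not called (adjusted p = 0.0539). CAO was higher by 0.59 on polysomes than on monosomes (SE 0.17, adjusted p = 0.0203). That call was lost without monosomal replicate 2 (0.0599) or 3 (0.0963) or polysomal replicate 2 (0.0792) or 3 (0.0568). For 5 genes the values were separate, against 40.3% of all loci. They included CHLD (0.71, adjusted p = 0.0539), HEMA1 (−0.44, adjusted p = 0.0932) and CHLI1 (−0.62, adjusted p = 0.0829), which were not called. Which genes were called changed with the scaling: HEMA1 (−0.65, adjusted p = 0.0138) and CHLI1 (−0.83, adjusted p = 0.0200) were called lower after centring on the 75th percentile, where CAO was not called (0.38, adjusted p = 0.0989). Loess scaling also called HEMA1 (−0.77, adjusted p = 0.00486) and CHLI1 (−0.92, adjusted p = 0.0121), and median centring called CHLD higher (0.72, adjusted p = 0.0433).

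Whether a difference between fractions itself changed from dry seed to seedling was tested as an interaction. For the step from total to monosomal RNA 3 genes were called, where 19.1% of all loci were. GUN4 moved from −0.24 in dry seed to −1.36 in seedlings (change −1.11, SE 0.29, adjusted p = 0.0129). Its dry seed values were all below the array median, so the dry seed difference rests on low values without a detection call. PORC moved from −0.59 to 0.53 (change 1.13, SE 0.32, adjusted p = 0.0191), and CAO from −0.61 to 0.23 (change 0.84, SE 0.24, adjusted p = 0.0225). PORC and CAO thus had monosomal means below total RNA in dry seed and above it in seedlings, and GUN4 moved further below. Not all of these differences were called by limma: PORC had adjusted p = 0.136 in dry seed and 0.0753 in seedlings. CAO had 0.323 in seedlings and GUN4 0.597 in dry seed. In dry monosomal RNA PORC lay above the array median on 1 of the 3 arrays, so its dry seed difference also rests on low values. The PORC call was lost with array weights (1.03, adjusted p = 0.0556) and that of CAO in a fit of these groups alone (adjusted p = 0.0534).

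For polysomal against total RNA 2 genes were called, where 9.00% of all loci were. HEMA1 moved from −0.38 to 0.84 (change 1.22, SE 0.26, 95% interval 0.69 to 1.76, adjusted p = 0.00597), and this call held when any one of the 12 arrays was left out. The dry seed values of HEMA1 were also all below the array median, so its dry seed difference rests on low values without a detection call. PORC moved from 0.07 to 1.13 (change 1.07, SE 0.32, adjusted p = 0.0416), a call lost in 10 of the 12 such fits, with adjusted p up to 0.108. CHLH moved from −0.22 to 0.73 (change 0.94, SE 0.30, adjusted p = 0.0544), short of the threshold here and past it with each of the 3 other scalings of the arrays.

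For polysomal against monosomal RNA 2 genes were called, where 10.5% of all loci were. HEMA1 moved from −0.44 to 0.52 (change 0.96, SE 0.26, adjusted p = 0.0209). PORA moved from −0.95 to 0.32 (change 1.27, SE 0.36, adjusted p = 0.0311). Both genes thus had polysomal means below the monosomal ones in dry seed and above them in seedlings. Not all of these differences were called by limma: HEMA1 had adjusted p = 0.0932 in dry seed and PORA 0.396 in seedlings. In dry polysomal RNA PORA lay above the array median on 1 of the 3 arrays and HEMA1 on 0, so both dry seed differences rest on low values. The HEMA1 call was lost without dry monosomal replicate 3 (0.0513) or dry polysomal replicate 2 (0.0576). Without dry polysomal replicate 2 the change of PORA was 0.98 (adjusted p = 0.0909), and its call was also lost without dry monosomal replicate 2 (0.0526) or 3 (0.0624), seedling monosomal replicate 3 (0.0620) or seedling polysomal replicate 2 (0.0658). It was lost with array weights (1.15, adjusted p = 0.0616) and without both seedling arrays of raised seed transcripts (0.0554) too.

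**Figure D4:**
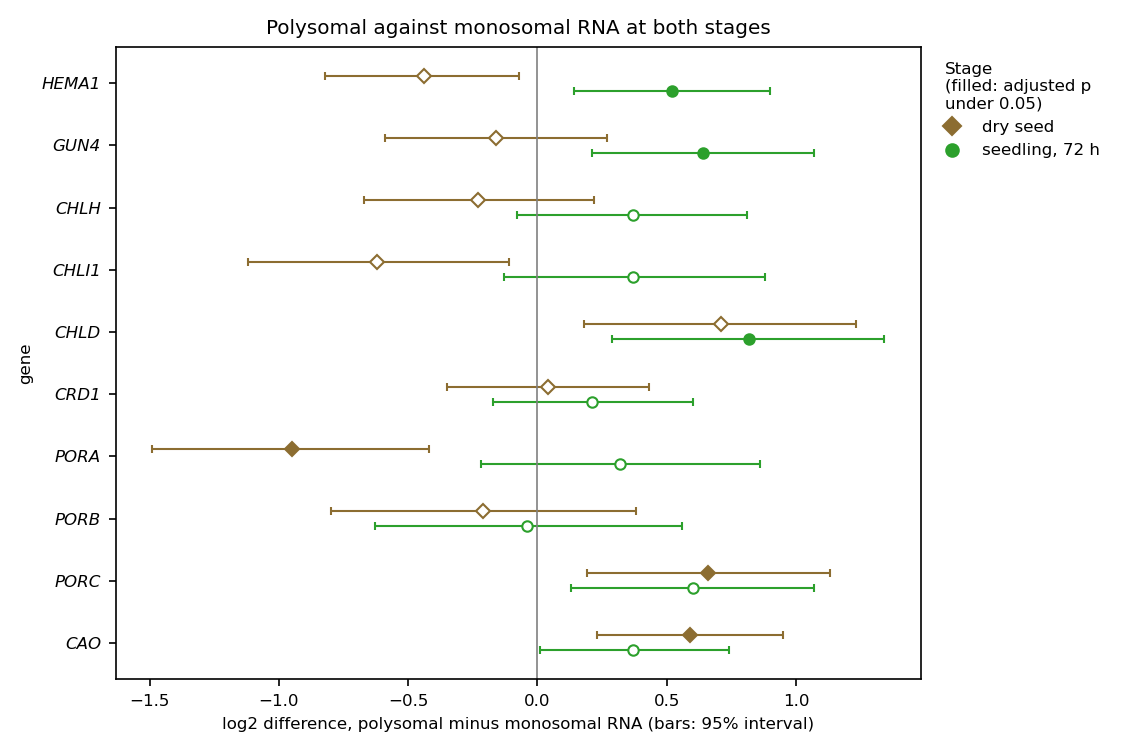
Log2 difference of polysomal from monosomal RNA (horizontal axis) for each gene (vertical axis) in dry seed and in seedlings, with 95% intervals and filled symbols for adjusted p under 0.05. PORA goes from −0.95 to 0.32 and HEMA1 from −0.44 to 0.52. CHLD (0.71 and 0.82), PORC (0.66 and 0.60), CAO (0.59 and 0.37) and CRD1 (0.04 and 0.21) lie above 0 at both stages, but none of them was called at both.

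Another 44 genes of tetrapyrrole metabolism, listed by function, were counted in the same fit to place the 10 genes in their pathway. In total RNA 26 of them rose, 12 fell and 6 were not called, where 28.8% of all loci rose and 33.3% fell. The other 6 genes of the chlorophyll branch all rose, with a median of 4.18. Among them, DVR, the divinyl reductase, went from 2.21 to 8.82 (rise 6.61, SE 0.36, adjusted p = 4.48e-12). CHLP, geranylgeranyl reductase, which makes the phytol tail, rose by 4.85 (SE 0.19), and CHLG, chlorophyll synthase, which attaches it, by 4.71 (SE 0.18). The 6 genes also all rose in monosomal (median 4.04) and polysomal RNA (median 4.40).

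The 14 other genes of the steps shared by heme and chlorophyll, from glutamate to protoporphyrin, moved less: 9 rose, 3 fell and 2 were not called in total RNA, with a median of 1.59. The uroporphyrinogen decarboxylase genes HEME2 (3.56, SE 0.16) and HEME1 (2.72, SE 0.21) and the aminolevulinate-forming aminotransferase GSA2 (3.32, SE 0.23) rose most. HEMA2, a further glutamyl-tRNA reductase gene named here after its values were seen, had means of 4.94 in dry seed and 4.80 in seedlings and was not called (difference −0.15, adjusted p = 0.620). All 4 regulators rose, with a median of 1.03: the transcription factor GLK1 by 1.88 (SE 0.26), FLU, which restrains aminolevulinate synthesis, by 1.14 (SE 0.19), and GBP, which binds glutamyl-tRNA reductase, by 0.93 (SE 0.17).

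In the branch to heme, bilins and siroheme 3 of 9 genes rose, 3 fell and 3 were not called, with a median of −0.37, where 28.8% of all loci rose and 33.3% fell, so these counts are near the background. The genes that rose were the heme oxygenase family gene HO2 (3.64, SE 0.23), the phytochromobilin synthase HY2 (2.14, SE 0.26) and the ferrochelatase FC2 (2.02, SE 0.26). Of 11 genes of chlorophyll breakdown 6 fell and 4 rose, with a median of −1.29, against the same background. SGR2 went from 10.47 to 3.07 (change −7.40, SE 0.58) and SGR1, which removes magnesium from chlorophyll, from 10.27 to 5.69 (change −4.59, SE 0.22). Their relative SGRL moved the other way, from 2.44 to 7.32 (change 4.88, SE 0.32).

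**Figure D5:**
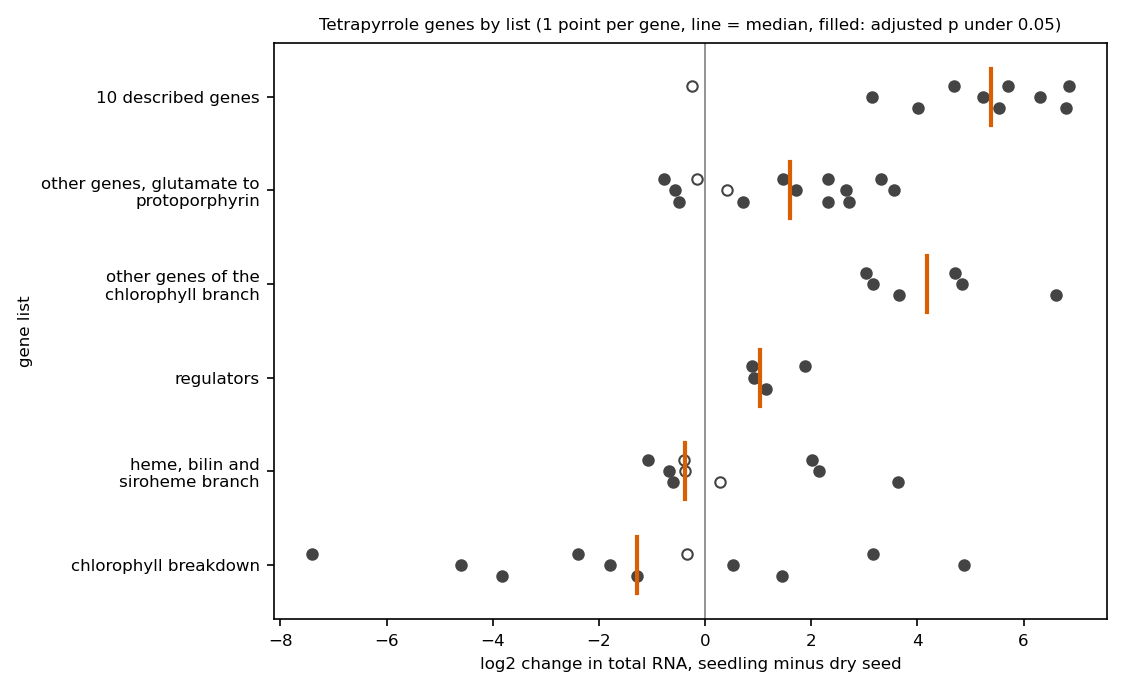
Log2 change in total RNA from dry seed to seedling (horizontal axis) of single genes in 6 lists of tetrapyrrole metabolism (vertical axis), with a line at each median and filled points for adjusted p under 0.05. Medians are 5.38 for the 10 described genes, 1.59 for the shared steps, 4.18 for the rest of the chlorophyll branch, 1.03 for regulators, −0.37 for the heme, bilin and siroheme branch and −1.29 for breakdown.

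Of the same 44 genes, 10 were higher and 2 lower on seedling polysomes than in total RNA, where 9.86% and 10.7% of all loci were. HEME2 was higher by 1.29 (SE 0.16, adjusted p = 1.06e-05), and PPO2, a protoporphyrinogen oxidase gene, had 0.98 (SE 0.20, adjusted p = 0.00208). HY2 was higher by 1.24 (SE 0.26, adjusted p = 0.00246) and HCAR, from the breakdown list, by 1.14 (SE 0.23, adjusted p = 0.00140). In the chlorophyll branch CHLM, the methyltransferase that acts just after the chelatase, was higher by 0.80 (SE 0.19, adjusted p = 0.00523) and CHLG by 0.59 (SE 0.18, adjusted p = 0.0264). HO2 was lower (difference −1.01, SE 0.23, adjusted p = 0.00356) and lay lower still in monosomal RNA (difference −1.83, SE 0.23, adjusted p = 1.24e-05), as GUN4 did. The other gene called lower was HEMA3 of the shared steps (−1.12, SE 0.25, adjusted p = 0.00359), at low means of 1.46 against 2.58.

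The loci whose 6 group means lay closest to the mean pattern of the 10 genes, each gene centred on its own mean, were CSP41A (root mean square difference 0.118 log2 units), SBPASE (0.130), PSBP-1 (0.135), TCH2 and HEC1 (both 0.147). Closest to PORA alone were MLP28 (0.145), AT1G52220 (0.221), AGP9 (0.226), ALDH11A3 (0.234) and AT2G42220 (0.240). Among the 10 genes themselves CHLI1 lay closest to their mean (0.22), followed by PORC (0.36) and GUN4 (0.41), and CAO lay farthest (2.41). This likeness is over 6 group means of which the step between the stages is the main part, and it is a description without a test.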

How the data were processed

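Arrays of total, monosomal and polysomal RNA from Col-0 dry seeds and 72 h seedlings were analysed, 3 per group. Per the labels, RNA was purified with TriPure reagent and RNeasy columns and labelled with the 3' one-cycle kit. The values deposited by the authors are log2 intensities after RMA (robust multi-array averaging), per the submitters' processing notes. Its version, platform and probe grouping are not given in the sources used here. All 27827 loci were kept, none was filtered, and 27241 of them, with all 10 genes among these, were matched to RefSeq names of assembly TAIR10.1. No genome or sequence table was used here, so promoters and proteins were not analysed.

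All 18 arrays entered 1 limma fit (version 3.58.1, R 4.3.3) of 6 means with 12 residual degrees of freedom, after a check on simulated data. It gave 12 comparisons: 3 between stages, 6 between fractions and 3 interactions. The labels name biological replicates, but p-values measure only the spread between these arrays, whose number limits the precision. Plants were grown in randomized complete blocks, per the labels, but no label ties a replicate number to a block, so the fit has none. The 10 genes and all gene lists were chosen with earlier results of these data known. Genes named outside the 10 were up to 3 called genes of each list with the largest change, and the 5 nearest patterns. Exceptions are named in the text. Alternatives covered scaling, low values, variance, array weights, a replicate block, left-out arrays and thresholds. Leaving out both seedling arrays with raised seed transcripts was added after the data were seen.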

Additional observations from a re-analysis of the deposited data

Results flagged for a closer look

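In 7 cases the difference between RNA fractions of a gene itself differed between dry seed and seedling, by the interaction term of the limma fit. Of all loci 19.1% were called for monosomal against total, 9.00% for polysomal against total and 10.5% for polysomal against monosomal RNA. For monosomal against total RNA these were GUN4 (−1.11, SE 0.29, adjusted p = 0.0129), PORC (1.13, SE 0.32, adjusted p = 0.0191) and CAO (0.84, SE 0.24, adjusted p = 0.0225). For polysomal against total RNA they were HEMA1 (1.22, SE 0.26, adjusted p = 0.00597) and PORC (1.07, SE 0.32, adjusted p = 0.0416). For polysomal against monosomal RNA they were HEMA1 (0.96, SE 0.26, adjusted p = 0.0209) and PORA (1.27, SE 0.36, adjusted p = 0.0311). The calls of GUN4 and PORC for monosomal against total RNA and of HEMA1 for polysomal against total RNA were kept in all 12 fits that left out 1 array, though the PORC call was lost with array weights (1.03, adjusted p = 0.0556). The call of CAO was lost without dry monosomal replicate 3 (0.73, adjusted p = 0.0579) and with only the groups compared (adjusted p = 0.0534), and that of PORA with array weights (1.15, adjusted p = 0.0616). Leaving out 1 array kept the PORC call for polysomal against total RNA in 2 of 12 fits. For polysomal against monosomal RNA the PORA call was kept in 7 of 12 and that of HEMA1 in 10 of 12. All dry seed values of HEMA1 and GUN4 lay below the array median. PORA in dry polysomal RNA and PORC in dry monosomal RNA each lay above it on 1 of 3 arrays.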

How the results depend on the processing

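The rise of HEMA1, GUN4, CHLH, CHLI1, CHLD, CRD1, PORA, PORB and PORC from dry seed to seedling was called under all alternatives run. No gene turned its direction while called, and CAO changed sign between scalings as given above. Of 1080 values of single genes under alternatives other than a left-out array, 35 lost a call and 34 gained one, and of 900 values with an array left out 53 lost and 8 gained one. The number of the 10 genes called moved as follows, where the cause was not tested. For dry seed it was 1 for monosomal against total RNA (0 with median centring, 0 with only the groups compared, 0 under a threshold of 0.01, 0 with a 2-fold minimum, 2 with a trend and robust prior), 0 for polysomal against total RNA (2 with centring on the 75th percentile, 1 with loess) and 3 for polysomal against monosomal RNA (5 with array weights, 1 with only the groups compared, 0 under 0.01, 0 at 2-fold). For seedlings it was 2 for monosomal against total RNA (5 with median centring, 4 with loess), 5 for polysomal against total RNA (2 under 0.01, 1 at 2-fold) and 3 for polysomal against monosomal RNA (1 with median centring, 0 with the 75th percentile, 0 with loess, 1 with array weights, 0 with only the groups compared, 1 without both seedling arrays of raised seed transcripts, 0 under 0.01, 0 at 2-fold). For the interactions it was 3 for monosomal against total RNA (0 under 0.01), 2 for polysomal against total RNA (4 with the 75th percentile, 4 with a trend and robust prior, 1 with the replicate block, 1 without both arrays, 1 under 0.01) and 2 for polysomal against monosomal RNA (1 without both arrays, 0 under 0.01, 1 at 2-fold). With 1 array left out at a time the counts stayed at 9, 10 and 9 for the stages, ran from 0 to 1, 0 to 1 and 0 to 4 for dry seed, 2 to 2, 3 to 5 and 0 to 2 for seedlings and 2 to 3, 1 to 3 and 0 to 3 for the interactions, in the order used above.

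Scaling also moved the split of all loci called higher and lower. In dry seed polysomal against total RNA went from 877 and 418 to 457 and 2220 with the 75th percentile and 370 and 391 with loess, and polysomal against monosomal RNA from 3211 and 2084 to 2130 and 5047 and to 2096 and 2880. For the interactions, monosomal against total RNA went from 2580 and 2740 to 4034 and 2177 with median centring and 3837 and 2149 with the 75th percentile, and polysomal against total RNA from 1124 and 1380 to 1486 and 1196 and to 2075 and 1066. Array weights gave 2840 calls in place of 1295 for polysomal against total RNA in dry seed and 4070 in place of 2504 for its interaction. With only the groups compared, 623 in place of 1727 were called for monosomal against total RNA in dry seed and 2299 in place of 5321 for polysomal against monosomal RNA in seedlings. Leaving out 1 array brought the dry seed counts as low as 944 for monosomal (without monosomal replicate 3) and 188 for polysomal against total RNA (without polysomal replicate 1), and the interactions from 2504 to 1530 and from 2919 to 1835 (without dry polysomal replicate 1 and 2).

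Deviations of same-numbered arrays correlated between −0.06 and 0.08 in 45 pairs (median 0.01), with all such pairs within seedlings positive. The 90 pairs with other numbers lay between −0.08 and 0.06. The main fit does not use the replicate numbers. With the replicate block PORC in polysomal against monosomal RNA of dry seed (adjusted p = 0.0581), HEMA1 in the same comparison of seedlings (0.0639) and the PORC interaction of polysomal against total RNA (0.0547) were not called. A search of promoter motifs, its window and the identity of the POR proteins were not run. Arrays give no depth, and 47 of 90 dry seed values exceed the median of their array.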
